A study of Sus scrofa with 4 samples.

Results

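The genes described here encode the MHC class II molecules of the pig, called SLA class II, and *CD74*, the invariant chain that escorts them through the cell. Their transcripts were measured on microarrays in slices of ileum from suckling piglets aged 16 days, and 2 arrays of low-gain piglets were compared with 2 arrays of high-gain piglets. The members were every probe that is not a control and that carries a RefSeq transcript of 1 of 10 named genes. This gave 32 of 43603 probes, which read 9 of the 10 genes (*SLA-DRA*, *SLA-DRB1*, *SLA-DQA1*, *SLA-DQB1*, *SLA-DMA*, *SLA-DMB*, *SLA-DOA*, *SLA-DOB* and *CD74*). *CIITA*, the gene of the class II transactivator, had no probe under this rule and was not analysed here.

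Low gain means RNA pooled from 2 piglets of low weight gain, and high gain means RNA pooled from 3 piglets of high weight gain, per the labels. All piglets were crosses of Yorkshire × Landrace dams with Duroc sires and were fed by their lactating dams. The series' design text defines the groups by weight at birth instead, and the sample labels were followed. Each group has arrays a and b, but nothing in the labels tells whether a and b are distinct pools or the same RNA hybridised again. All p-values below thus rest on the variation among 4 hybridisations, which may be technical in nature. No piglet was measured singly.

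Class II molecules present peptides from engulfed proteins to CD4+ T cells. They are carried by B cells, macrophages and dendritic cells, and in pigs also by many T cells, all of which are at home in the gut-associated lymphoid tissue of the ileum. Each DR or DQ molecule is a pair of an alpha and a beta chain, which binds *CD74* when newly made. Lysosomal proteases then cut *CD74* down to a short peptide, DM (*SLA-DMA* and *SLA-DMB*) exchanges that peptide for an antigen, and DO (*SLA-DOA* and *SLA-DOB*) restrains DM. In the pig assembly Sscrofa11.1 the 8 SLA class II genes follow one another on 1 chromosome in the order *SLA-DRA*, *SLA-DRB1*, *SLA-DQA1*, *SLA-DQB1*, *SLA-DOB*, *SLA-DMB*, *SLA-DMA*, *SLA-DOA*, and *CD74* lies on another chromosome.

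On each array, between 32835 and 33972 of 43803 spots that were not controls lay well above background, and no spot was saturated. *FABP6*, a bile acid binding protein gene that marks the ileum, gave normalised log2 signals of 8.55 to 8.76 on the 4 arrays. Each of the 32 member probes was spotted once and lay well above background on all 4 arrays. Signals are log2 of the scanner's processed signal minus the 75th percentile of that array, so that 0 is the 75th percentile and 1 unit is a 2-fold step. Probes of a gene are numbered from the brightest, as probe 1. A brighter probe need not mean a more abundant transcript, and levels are compared only within a probe. Differences are low gain minus high gain.

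No member probe passed the test. In limma's fit over 33265 tested probes, with p-values adjusted over all of them by the Benjamini-Hochberg method and a threshold of 0.05, 0 of the 32 member probes were called, against 80 of all tested probes (0.24%). At an unadjusted limma p under 0.05, 8 of the 32 were counted (25.0%, beside 18.4% of all tested probes). Of these, 6 were lower in low gain (beside 8.57% of all tested probes) and 2 were higher (beside 9.82%). With a prior variance that follows signal intensity, 3 of the 32 passed (9.38%, beside 3.76% of all tested probes). These were *SLA-DQB1* probe 3 (higher in low gain, adjusted p = 0.014), *SLA-DQB1* probe 4 (lower, adjusted p = 0.0372) and *SLA-DMA* probe 2 (lower, adjusted p = 0.0495).

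**Figure D1:**
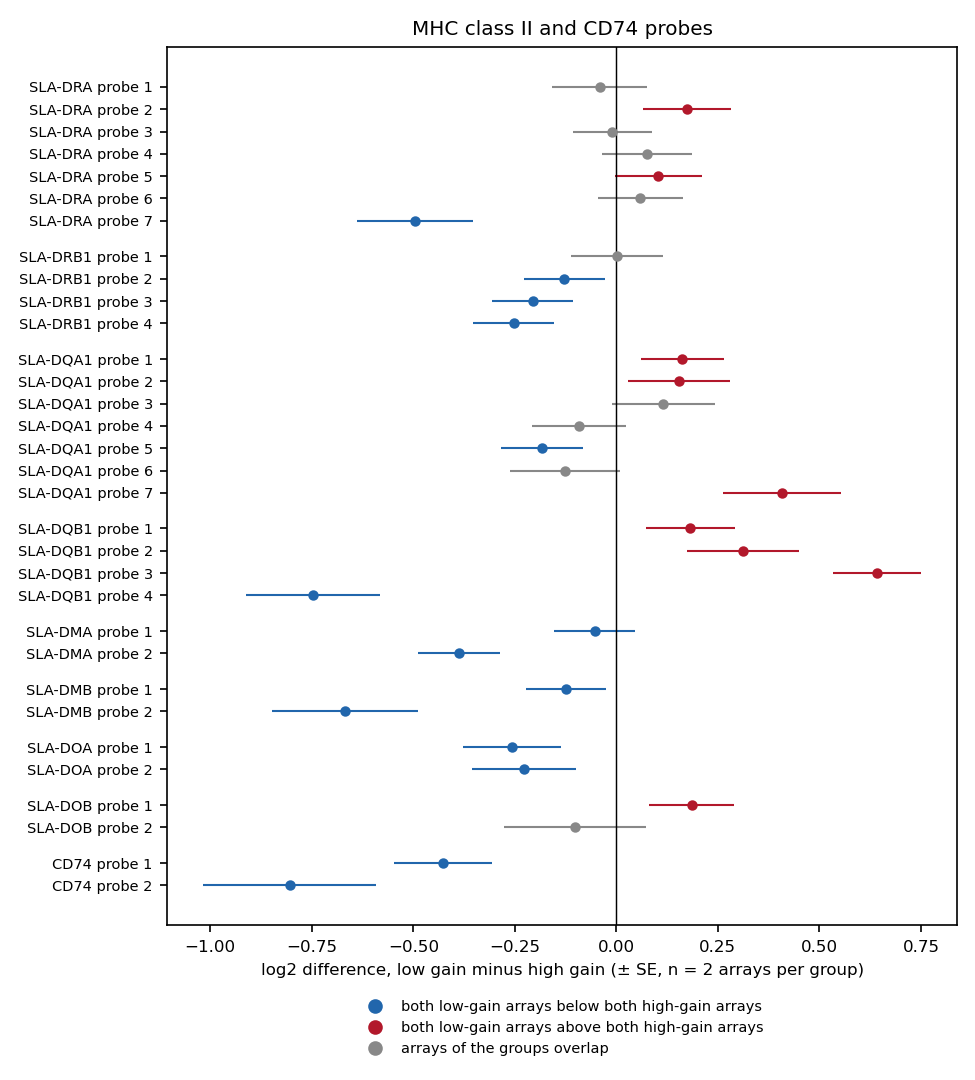
Log2 difference between low-gain and high-gain arrays for each of the 32 probes (horizontal axis), with the standard error of the limma fit and n = 2 arrays per group; colour shows whether the arrays of the groups overlap. The 8 probes of *CD74*, *SLA-DMA*, *SLA-DMB* and *SLA-DOA* all lie to the left of 0, and *SLA-DQB1* runs from -0.75 to 0.64.

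The arrays of the groups did not overlap for 23 member probes (71.9%, beside 54.5% of all tested probes). This count depends on the background correction, since under plain normexp correction 0 of the 32 were without overlap in either direction, and with unusually bright spot backgrounds replaced first (a setting added after the data were seen) 16 were lower and 9 higher. Among the 23, the difference moved by over 1.5 times for 8 when 1 high-gain array was left out, and for 0 when 1 low-gain array was left out. Both low-gain arrays lay below both high-gain arrays for 14 of the 32 (43.8%, beside 26.9% of all tested probes), and above them for 9 (28.1%, beside 27.6%). The lower probes included all 8 of *CD74*, *SLA-DMA*, *SLA-DMB* and *SLA-DOA*. With 1 probe per gene, the brightest, the median difference over the 9 genes was -0.04, beside 0.02 over 2158 named genes, and 5 of the 9 were below 0. None of the 9 was called, against 0.417% of the named genes. The median absolute difference of the member genes was 0.16, beside 0.21 for all named genes.

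Array pairs within a group differed less over the member probes than pairs from different groups. The median absolute difference over the 32 probes was 0.07 between the low-gain arrays and 0.13 between the high-gain arrays. For the 4 pairs made of a low-gain and a high-gain array, it lay between 0.15 and 0.22. Over all tested probes the corresponding values were 0.14, 0.15, and 0.18 to 0.30.

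*CD74*, the chaperone of the class II chains, had the largest difference among the 9 genes when each was read by its brightest probe. Probe 1 (A_72_P223292) gave signals of 4.39 and 4.34 in low gain and of 4.90 and 4.70 in high gain. The low-gain arrays lie 0.05 apart and the high-gain arrays 0.2 apart, and both low-gain arrays lie below both high-gain arrays. The level was 1.35-fold lower in low gain (log2 difference -0.43 ± 0.12, SE, n = 2 arrays per group, 95% interval -0.76 to -0.09, limma adjusted p = 0.218). This difference was -0.33 without high-gain array a and -0.53 without high-gain array b.

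Probe 2 of *CD74* (A_72_P796773) gave 3.32 and 3.47 in low gain and 4.46 and 3.94 in high gain. The groups again did not overlap, but the high-gain arrays stood 0.52 apart, the widest gap within a group among the member probes. Its level was 1.75-fold lower in low gain (log2 difference -0.80 ± 0.21, 95% interval -1.39 to -0.21, limma adjusted p = 0.209). Without high-gain array a the difference was -0.55, and without high-gain array b it was -1.06. Both *CD74* probes just missed the threshold with the intensity trend (adjusted p = 0.0528 and 0.0525). In bulk tissue, fewer cells that express a gene and less RNA per cell cannot be told apart.

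**Figure D2:**
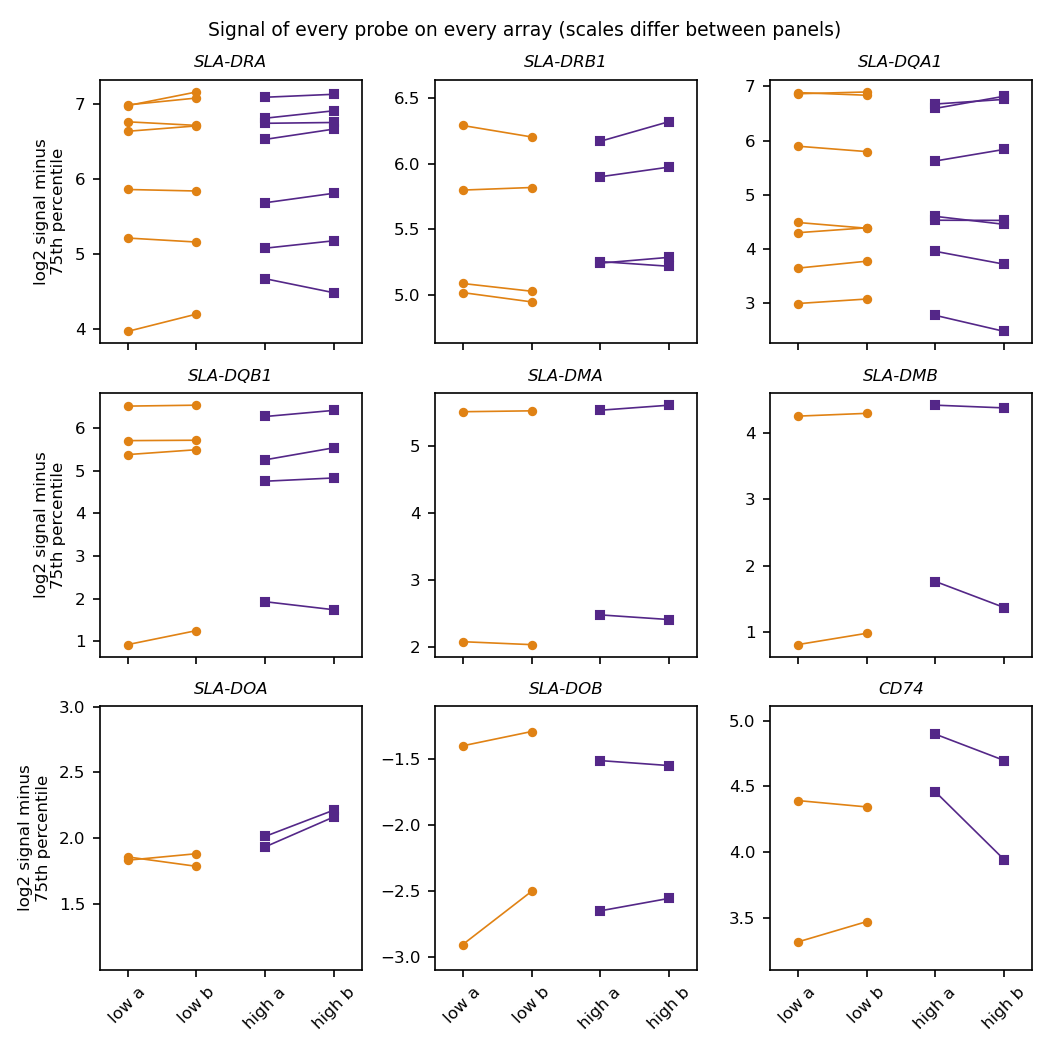
Normalised log2 signal of each member probe (vertical axis, 1 panel per gene) on the low-gain arrays a and b (circles) and the high-gain arrays a and b (squares), with lines joining the arrays of a group. Both *CD74* probes are lower on the low-gain arrays, whereas the 6 brightest *SLA-DRA* probes change little.

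The ratio of *CD74* to a class II gene within an array does not depend on how arrays are scaled to each other. With the brightest probe on both sides, this log2 ratio was lower on both low-gain arrays than on both high-gain arrays for 7 of the 8 class II genes, and the arrays overlapped for *SLA-DOA*. The difference in the log2 ratio ran from -0.61 (*SLA-DOB*, SE 0.11 from the spread of the ratio) to -0.17 (*SLA-DOA*, SE 0.21). Against *SLA-DRA*, the log2 ratio was -2.59 and -2.82 in low gain and -2.20 and -2.44 in high gain, a difference of -0.39 ± 0.17 (SE, n = 2 arrays per group). *CD74* probe 1 had the most negative difference among the brightest probes of the member genes, so all 8 ratio differences had to be below 0. These 8 ratios also share the *CD74* values and are not independent. An exact permutation test of 2 arrays against 2 cannot give a two-sided p below 0.333, so none was run on them.

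The choice of probe mattered for this ratio. With *CD74* probe 1 against each of the 30 class II probes, 23 ratios were lower in low gain without overlap, 2 were higher and 5 overlapped. For *CD74* probe 2 the counts were 29, 0 and 1, and the differences in the log2 ratio ran from -1.45 to -0.06. That probe had the most negative difference of all member probes, so each of its ratio differences had to be below 0. The same counts over pairs of other genes were not made. Such a ratio compares a pair of probes within an array and does not say which of them differed.

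**Figure D3:**
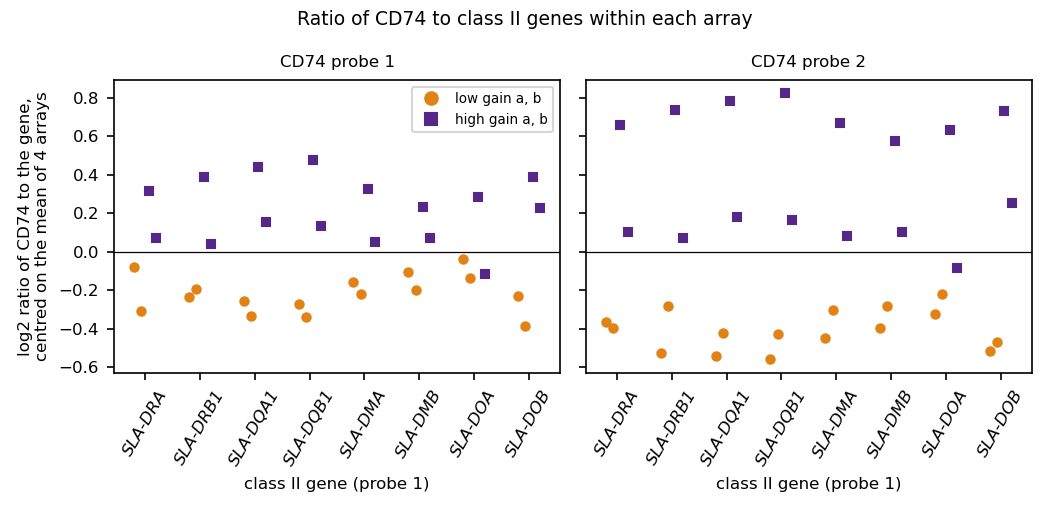
Log2 ratio of *CD74* probe 1 (left) and probe 2 (right) to the brightest probe of each class II gene, centred on the mean of the 4 arrays (vertical axis); circles are low-gain and squares high-gain arrays. The low-gain arrays lie below the high-gain arrays in each column except *SLA-DOA* on the left, where they overlap.

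The DR chains, which pair as alpha and beta, did not show one direction. *SLA-DRA*, the alpha chain gene, was read by 7 probes with log2 differences from -0.49 to 0.17 and a median of 0.06. Its brightest probe (A_72_P176171) gave 6.98 and 7.17 in low gain and 7.10 and 7.14 in high gain. These values overlap, and the difference of -0.04 ± 0.12 has a 95% interval of -0.36 to 0.28 (limma adjusted p = 0.864). Probes 2 to 6 ran from -0.01 to 0.17, of which probes 2 and 5 were higher in low gain without overlap. Probe 5, at 0.10, was at 0.04 without high-gain array a.

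*SLA-DRA* probe 7, the dimmest, stood apart from the other 6. It gave 3.96 and 4.19 in low gain and 4.67 and 4.48 in high gain, a difference of -0.49 ± 0.14 (limma adjusted p = 0.222). The groups did not overlap on this probe, and its difference lies outside the range of the other 6.

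*SLA-DRB1*, the DR beta chain gene, had 4 probes with a median log2 difference of -0.17. Probe 1 gave 6.29 and 6.20 in low gain and 6.17 and 6.32 in high gain, which overlap, with a difference of 0.00 ± 0.11 (limma adjusted p = 0.996). The other 3 probes were each lower in low gain without overlap, at -0.13, -0.21 and -0.25. For probe 4 the signals were 5.02 and 4.95 in low gain and 5.26 and 5.22 in high gain (difference -0.25 ± 0.10, limma adjusted p = 0.297), but the difference turned to 0.05 in the log2 values that the authors deposited.

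The DQ chains had 7 of 11 probes above 0 and 4 below. *SLA-DQB1*, the beta chain gene, had 4 probes, and on 3 of them both low-gain arrays lay above both high-gain arrays. Probe 1 gave 6.51 and 6.53 in low gain and 6.27 and 6.41 in high gain, a difference of 0.18 ± 0.11 (limma adjusted p = 0.436). Probe 2 differed by 0.31 ± 0.14. Without high-gain array a these differences were 0.11 and 0.17. Probe 3 (A_72_P585101) gave 5.37 and 5.49 in low gain and 4.75 and 4.83 in high gain, so that the gap between the groups was several times the gap within either. Its level was 1.56-fold higher in low gain (log2 difference 0.64 ± 0.11, 95% interval 0.34 to 0.94, limma adjusted p = 0.161).

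Probe 4 of *SLA-DQB1* (A_72_P631166) went the other way. Its signals were 0.92 and 1.25 in low gain and 1.93 and 1.74 in high gain, again without overlap. This was a 1.68-fold lower level in low gain (log2 difference -0.75 ± 0.16, 95% interval -1.20 to -0.29, limma adjusted p = 0.190). Probes assigned to the same transcript thus gave the largest positive and the second largest negative difference among all members. No single direction can be given for *SLA-DQB1*.

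*SLA-DQA1*, the DQ alpha chain gene, had 7 probes from -0.18 to 0.41 with a median of 0.12. The brightest gave 6.86 and 6.90 in low gain and 6.67 and 6.76 in high gain, a difference of 0.16 ± 0.10 (limma adjusted p = 0.450). Probe 7 gave 2.995 and 3.08 in low gain and 2.78 and 2.48 in high gain (difference 0.41 ± 0.15, limma adjusted p = 0.268), and without high-gain array b the difference was 0.26. Probe 2, at 0.15, was at 0.04 without high-gain array a. In all, 3 of the 7 *SLA-DQA1* probes were higher in low gain without overlap, 1 was lower and 3 overlapped. Over both DQ genes, 6 of 11 probes were higher without overlap and 2 lower, and over both DR genes 2 of 11 were higher and 4 lower, beside 27.6% higher and 26.9% lower among all tested probes. Whether DQ and DR differ from each other was not tested.

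DM, the peptide exchange factor, was lower in low gain on each of its 4 probes, without overlap. *SLA-DMA* probe 1 differed little, with 5.52 and 5.53 in low gain and 5.54 and 5.61 in high gain (difference -0.05 ± 0.10, limma adjusted p = 0.789), and the difference was -0.02 without high-gain array b. Probe 2 (A_72_P427349) gave 2.08 and 2.04 against 2.48 and 2.41, a difference of -0.39 ± 0.10 (95% interval -0.67 to -0.11, limma adjusted p = 0.206). The arrays of a group lay within 0.08 of each other on both probes, so the probes disagree on the size by more than that spread.

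*SLA-DMB* showed the same split between its probes. Probe 1 gave 4.25 and 4.30 in low gain and 4.42 and 4.38 in high gain (difference -0.12 ± 0.10, limma adjusted p = 0.536). Probe 2 gave 0.82 and 0.99 in low gain and 1.77 and 1.37 in high gain (difference -0.67 ± 0.18, limma adjusted p = 0.211). The signals did not overlap on either probe, but the high-gain arrays were 0.39 apart on probe 2.

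DO, the inhibitor of DM that B cells carry in particular, was split between its chains. *SLA-DOA* was lower in low gain on both probes, with 1.83 and 1.88 against 2.02 and 2.22 on probe 1 (difference -0.26 ± 0.12, limma adjusted p = 0.348) and a difference of -0.23 ± 0.13 on probe 2. Its probes had nearly the same signal and nearly the same difference. Without high-gain array b the differences were -0.16 and -0.11, and plain normexp correction gave -0.13 for probe 1. *SLA-DOB* probe 1 gave -1.40 and -1.29 in low gain and -1.51 and -1.55 in high gain, higher in low gain without overlap (difference 0.19 ± 0.10, limma adjusted p = 0.413). *SLA-DOB* probe 2 overlapped, with -2.91 and -2.50 in low gain and -2.65 and -2.55 in high gain.

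The direction of the 8 probes of *CD74*, *SLA-DMA*, *SLA-DMB* and *SLA-DOA* was the same in each of the 13 other settings tried. Several of these settings change only the test or the filter and leave the difference as it is. Leaving out 1 array cannot reverse a probe without overlap, and the remaining settings rework the same arrays. The genes were grouped by direction, being those with every probe lower in low gain without overlap. An unchanged direction is thus not independent evidence for them. *SLA-DOB*, the partner of *SLA-DOA*, falls outside the group, at 0.19 on probe 1 and -0.10 on probe 2. None of the 8 probes was called in the fit reported here.

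Within a gene, the dimmer probes tended to give the lower values in low gain. For 7 of the 9 member genes the dimmest probe had a more negative difference than the brightest, the exceptions being *SLA-DQA1* and *SLA-DOA*. The median of this gap between the dimmest and brightest probe was -0.33. The same was seen across the arrays as a whole. Among 1157 other genes with several tested probes, the dimmest probe was the more negative in 840 (72.6%), with a median gap of -0.15. Among the 482 of them whose probes were as far apart in signal as those of the median member gene or farther, it was the more negative in 82.8%, with a median gap of -0.35. The share among the members was 77.8%, between these values. The median distance in signal between the 2 probes was 2.77 for the members, 2.31 for the 1157 genes and 4.41 for the 482. The sets are thus not matched in that distance.

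No such shift appeared when probes were ordered by signal alone, across genes. When all tested probes were ranked by signal and divided into 10 equal parts, the median difference of each part lay between -0.01 and 0.07. On single arrays, the signal of a gene's dimmest probe minus that of its brightest, centred on the gene's mean over the 4 arrays, had medians over the other genes of -0.08 and -0.09 in low gain and of 0.15 and 0.00 in high gain. Over the member genes the medians were -0.25 and -0.12 in low gain and 0.24 and 0.09 in high gain. High-gain array a was the highest in both sets, as it was for both *CD74* probes, probe 2 of *SLA-DMB*, probe 4 of *SLA-DQB1* and probe 7 of *SLA-DRA*. The part of this shift in the differences of the dim member probes, and its cause, were not tested.

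**Figure D4:**
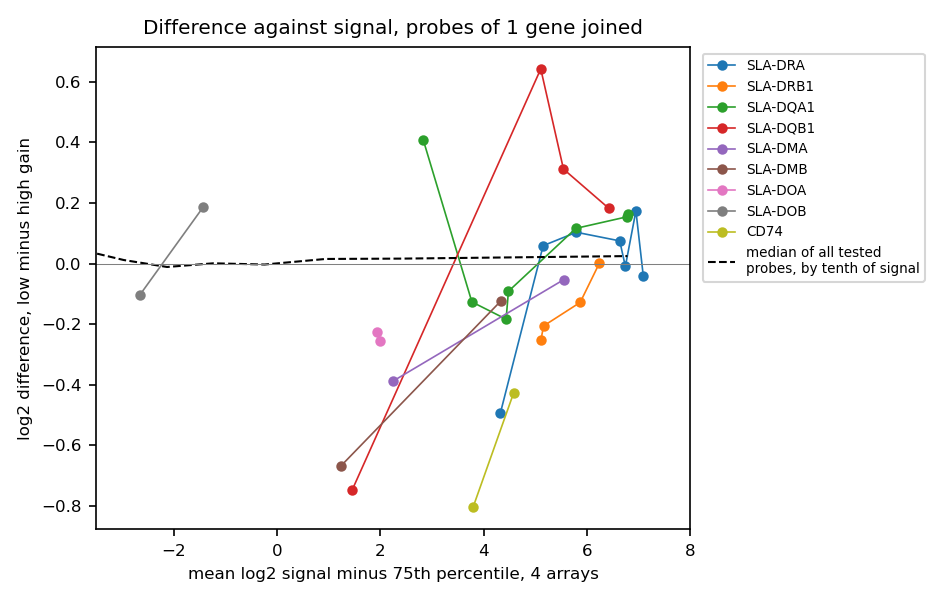
Log2 difference between low and high gain (vertical axis) against the mean normalised log2 signal of the probe over 4 arrays (horizontal axis), with probes of 1 gene joined; the dashed line is the median of all tested probes in 10 equal parts by signal. In 7 of the 9 genes the leftmost probe lies below the rightmost, while the dashed line stays near 0.

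The genes that work with class II were read from lists, each gene by its brightest probe. The lists were chosen with earlier results of these data known. The shares of all tested probes set beside them count every probe of a gene, so the 2 are not alike. Of 43 measured genes on 9 lists, 0 passed in the limma fit over all probes, 17 had an unadjusted p under 0.05 (39.5%, beside 18.4% of all tested probes) and 7 passed with the intensity trend (16.3%, beside 3.76%). The 7 were *CTSZ*, *CTSD*, *CD163* and *CD1.1*, lower in low gain, and *ANPEP*, *CDH1* and *FABP2*, higher. Among genes for the processing of the invariant chain and antigen, all 6 measured of 12 had differences below 0 (median -0.24). Of these, 5 were lower in low gain without overlap, beside 26.9% of all tested probes. *CTSZ*, a lysosomal carboxypeptidase gene, gave 1.92 and 1.85 in low gain and 2.65 and 2.37 in high gain (difference -0.63 ± 0.14, limma adjusted p = 0.190). *CTSD*, the gene of an aspartic protease of lysosomes, gave 3.63 and 3.46 against 4.23 and 4.06 (difference -0.60 ± 0.13, limma adjusted p = 0.188). *CTSH* differed by -0.34 ± 0.11. Nearer to 0 were *IFI30* (-0.15 ± 0.11), *CTSB* (-0.06 ± 0.10) and *CST3* (-0.06 ± 0.10, with overlap). *CTSZ* and *CTSD* passed with the intensity trend (adjusted p = 0.0361 and 0.0309).

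Genes for class II transcription and the interferon-gamma signal that induces it had a median difference of 0.05 over 9 measured of 18, with 4 below and 5 above 0. The kinase gene *JAK2*, which acts below the interferon-gamma receptor, differed by 0.33 ± 0.10 on probe 1 and by -0.64 ± 0.12 on probe 2. *IFNGR1*, a chain of that receptor, differed by 0.25 ± 0.12, and *USF1*, a transcription factor gene, by -0.25 ± 0.11. *IFNG* itself overlapped between the groups, with -4.25 and -3.93 in low gain and -3.99 and -4.40 in high gain.

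Genes on the T cell side of class II recognition had a median of 0.10 over 12 measured of 14, with 8 above and 4 below 0. *CD80*, a costimulatory ligand that antigen-presenting cells carry, differed by -0.59 ± 0.12, while *CD3E* (0.53 ± 0.17) and *CD3G* (0.44 ± 0.14), chains of the T cell receptor complex, were higher in low gain without overlap. *CD3D*, another chain of that complex, was at -0.22 ± 0.17, with overlap. *CD4*, the coreceptor for class II, gave -2.74 and -3.15 in low gain and -3.13 and -3.05 in high gain, which overlap.

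Markers of macrophages and dendritic cells, which carry class II, differed in the same direction as *CD74* when each gene was read by its brightest probe. All 4 macrophage genes measured of 8 were lower in low gain without overlap (beside 26.9% of all tested probes; median difference -0.33), none passed the test, and their summed signal was 4.31 to 4.32 in low gain and 4.45 to 4.46 in high gain. *CD163*, a scavenger receptor gene of macrophages, gave 1.54 and 1.61 against 1.96 and 2.01 (difference -0.41 ± 0.10, limma adjusted p = 0.198, and 0.0471 with the intensity trend), and its other 3 probes gave -0.54 to -0.39. *CD14*, an endotoxin receptor gene, differed by -0.25 ± 0.14. *SIGLEC1* differed by -1.57 ± 0.41 but was well above background on 3 of the 4 arrays. *AIF1*, the brightest of the 4 genes, differed by only -0.07 ± 0.10, and the groups overlapped on its other probe (0.002).

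All 4 dendritic cell genes measured of 9 were lower in low gain without overlap as well, beside the same 26.9%, with a median of -0.44 and summed signals of 2.31 to 2.35 in low gain and 2.72 to 2.81 in high gain. *CD1.1*, which presents lipids, gave -0.42 and -0.30 against 0.84 and 0.56 (difference -1.06 ± 0.14, limma adjusted p = 0.134, and 0.0137 with the intensity trend), and its other probe gave -1.07. *CD80* stood at the value above, and *CD86*, its sister ligand, differed by -0.28 ± 0.10. The groups overlapped on the second probe of *CD80* (-0.39), but not on that of *CD86* (-0.63). B cell genes had a median of -0.17 over 4 measured of 9, with *FCER2* at -0.62 ± 0.13 and *CD79A* at -0.31 ± 0.13. Their summed signal overlapped, at 5.56 to 5.74 in low gain and 5.66 to 5.77 in high gain, and *FCER2* was well above background on 3 of the 4 arrays.

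Some cell marker lists share genes with the T cell side list (*CD80*, *CD3E* and *CD3G* among them). The list of T cell genes, with 5 measured of 6, had a median of 0.43, with 4 above 0 and 1, *CD3D*, below. Without overlap, 3 were higher (*CD3E*, *CD3G* and the adhesion receptor gene *CD2*, at 0.43 ± 0.12) and none was lower. Among all tested probes these shares were 27.6% and 26.9%. Their summed signal was 1.85 to 1.99 in low gain and 1.45 to 1.52 in high gain. Enterocyte genes were higher in low gain without overlap for all 4 measured of 5 (beside 27.6% of all tested probes; median 0.53), and their summed signal was 7.98 to 8.07 in low gain against 7.51 to 7.54 in high gain. Among them were the brush-border peptidase gene *ANPEP* (0.68 ± 0.10), *CDH1*, the gene of E-cadherin (0.58 ± 0.10), and *FABP2*, a fatty acid binding protein gene of enterocytes (0.48 ± 0.12), which passed with the intensity trend (limma adjusted p = 0.00664, 0.0188 and 0.0372). *EPCAM* differed by 0.16 ± 0.13. The dimmer probes of these 4 genes were also above 0, but not all were without overlap. The groups overlapped on *ANPEP* probe 3 (0.14), *CDH1* probe 2 (0.27) and *EPCAM* probes 14 (0.04) and 16 (0.09). The ileum genes *GUCY2C* (0.28 ± 0.10) and *FABP6* (0.02 ± 0.12) had a median of 0.15. No gene of these lists passed the test over all probes. The part of these cell markers in the differences of *CD74* and the class II genes was not tested.

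**Figure D5:**
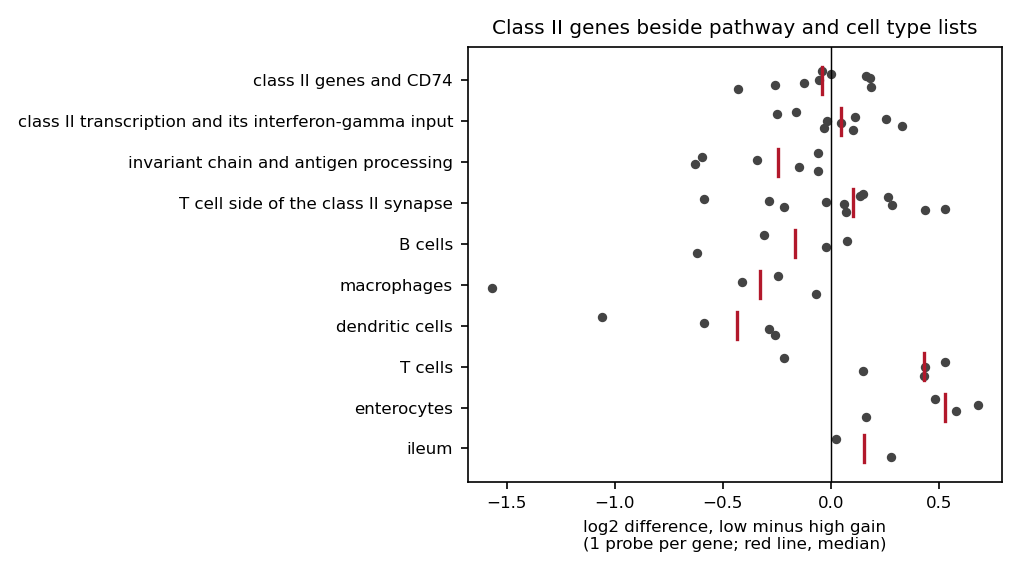
Log2 difference between low and high gain (horizontal axis) of each measured gene, read by its brightest probe, for the class II genes with *CD74* and for 9 other lists; the red line is the median of a list. Medians run from -0.44 for dendritic cell genes to 0.53 for enterocyte genes, and the class II genes have a median of -0.04.

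The named genes whose pattern over the 4 arrays was most like that of *CD74* probe 1 were found by centring each gene's 4 values on their mean and taking the smallest root mean square distance. Among 2149 genes that are not members, *DCPS*, the gene of an enzyme that removes leftover mRNA caps, came first at a distance of 0.0078. Its signals were -0.50 and -0.53 in low gain and 0.00 and -0.18 in high gain. *SNRPA*, a spliceosome protein gene, followed at 0.017, then *GNAI2*, a G protein subunit gene, at 0.030, *ODF2*, a centrosome protein gene, at 0.030, and *APOBEC3B*, a cytidine deaminase gene, at 0.031. Their log2 differences ran from -0.48 to -0.41. A pattern over 4 arrays holds few values, and such likeness says nothing of a shared role.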

How the data were processed

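Total RNA was labelled with Cy3 and hybridised to 1-colour Agilent pig arrays, 4 in all on 1 slide. Scanner output of Feature Extraction 10.7.3.1 was deposited, with a processed intensity for each spot that already carries the scanner software's background treatment, per the file headers. A second deposited table holds the authors' own log2 values, of which the direction is that of signal but the centring and scaling are not given in the sources used here. Set against log2 processed signal of the same array, that table correlated at 0.982 to 0.993 over 45220 spots, its column medians were 5.62, 5.59, 5.67 and 5.60 (low gain a and b, high gain a and b), and it served only as an alternative.

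Log2 processed signal minus the array's 75th percentile over spots that were not controls was averaged over the unflagged spots of a probe. Of these probes, 48 lacked a value on some array and were left out, and the test then took the 33265 that were well above background on both low-gain or both high-gain arrays. The comparison used limma 3.58.1 (lmFit, then eBayes) under R 4.3.3, without a block. Standard errors and 95% intervals are those of this fit, with 4.02 total degrees of freedom, and intervals are not adjusted for the number of probes. Precision is limited by having 2 arrays per group. The fit was tested on simulated data.

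Gene names came from NCBI's table for Sscrofa11.1, matched on RefSeq accession without its version (5461 of 5779 probes that carry one). No coordinates are given, because no build is named in the files. Class II genes resemble each other and vary between animals, so a probe may also bind the transcript of a related gene, and each value is uncertain to that extent. The members and gene lists were chosen with earlier results of these data known. Every member probe is described, and of each other list the 3 genes with the largest difference and any past the test, except 1 gene that is not reported here; other genes named (*IFNG*, *CD4* and second probes) were added after their values were seen. Alternatives covered the filter, scaling, background correction, the deposited values, the intensity trend, the letter as a block and leaving out each array.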

Additional observations from a re-analysis of the deposited data

How the results depend on the processing

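Of 416 values of the 32 probes under 13 other settings, 398 kept their direction and their side of the threshold. Another 6 passed the threshold and 12 changed sign, on 5 probes. Many of the directions were fixed in advance. The intensity trend, the letter as a block and both changes of the filter leave each difference as it is. For the 23 probes without overlap, leaving out 1 array cannot change the sign. Member probes past the threshold numbered 3 with the intensity trend and 3 under normexp with bright backgrounds replaced, a setting added after the data were seen (there *SLA-DQB1* probes 3 and 4 and *CD74* probe 2, limma adjusted p = 0.031, 0.0335 and 0.0363), and 0 in the others. List genes past the threshold numbered 7 and 5 in the same settings. Under plain normexp, 0 member probes were without overlap in either direction; 22 spots of low-gain array a and 25 of high-gain array b have local backgrounds above 100 there. The median of the member genes, -0.04, was -0.15 when a gene's probes were averaged, -0.07 in the values deposited by the authors, and -0.073 to -0.016 when 1 array was left out. The signs that changed belong to differences within 1 standard error of 0, except in *SLA-DRB1* probe 4 (0.050 in the deposited values). *SLA-DRB1* probe 1 was at -0.0063 (normexp), -0.026 (bright backgrounds replaced), -0.00050 (quantile), -0.032 (deposited values) and -0.073 to 0.076 with 1 array left out. *SLA-DOB* probe 2 was at 0.0018 (normexp), 0.018 (bright backgrounds replaced) and -0.30 to 0.0997 with 1 array left out. *SLA-DRA* probes 1 and 3 ran from -0.13 to 0.051 and from -0.034 to 0.015 with 1 array left out. The causes were not tested.

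All tested probes past the threshold, 80 in the fit reported here, numbered 1250 with the trend, 850 with bright backgrounds replaced, 163 with median centring, 99 in the deposited values, 69 with quantile normalisation, 12 with no filter, 0 to 37 with 1 array left out, and 0 under plain normexp, with signal required on all 4 arrays and with the letter as a replicate block. With that replicate block 0 member probes passed and the median of the member genes was -0.04. A minus b correlated at -0.038 between the groups over 33265 probes. This value cannot show whether arrays of the same letter share a preparation, and the labels do not say.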

Other observations

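Several genes of the lists showed the same spread between bright and dim probes as the class II genes. Of 27 list genes with several tested probes, the dimmest was more negative in low gain than the brightest in 20. *CTSB*, a lysosomal protease gene, gave -0.06, -0.23, -0.75 and -1.26 from its brightest to its dimmest probe. On the dimmest the signals were -1.24 and -0.94 in low gain and 0.59 and -0.25 in high gain, so that the high-gain arrays differed from each other by more than the low-gain arrays. *CD14* gave -0.25 and -1.11, and *CD40*, a costimulatory receptor gene, gave -0.02 and -0.36. *CD1.1* and *FABP2* did not share it, with -1.06 and -1.07 for the former and 0.48 and 0.51 for the latter. These genes were chosen after their values were seen.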
